A study of Homo sapiens with 24 samples.

Results

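TAZ4SA and YAP5SA are phosphorylation-resistant forms of the paralogs TAZ (encoded by WWTR1) and YAP (encoded by YAP1), and the 3 libraries from SW872 cells with TAZ4SA were compared here directly with the 3 libraries from SW872 cells with YAP5SA. These 6 libraries were 6 of the 24 in the series. The other groups were cells with CAMTA1, TAZ-CAMTA1, TFE3 or YAP-TFE3, and confluent and sub-confluent empty vector cells. The CAMTA1 cells were also collected sub-confluent. Each table held 60279 genes, and 19221 of them averaged 5 counts or more across these 6 libraries and were tested. SW872 is an established human liposarcoma cell line, and mRNA was profiled by strand-specific sequencing. All 6 cultures were collected 48 h after confluence. The TAZ4SA cells carried a double Flag-tagged TAZ in which serines 66, 89, 117 and 311 had been changed to alanine, and the YAP5SA cells carried YAP with the same exchange at serines 61, 109, 127, 164 and 397. Both were delivered by a pBabeNeo retrovirus, as was the empty vector (EV) of the 3 confluent control libraries, and drug-selected stable lines were used as pools. Each replicate came from its own transduction and selection, so p-values measure the spread between transduced cultures of 1 cell line.

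YAP and TAZ are transcriptional coactivators with no DNA-binding domain of their own. They reach DNA mainly through the TEAD factors, which often sit beside AP-1 sites, and through WW domains that bind other factors. In the Hippo pathway the kinases STK3 and STK4 activate LATS1 and LATS2, which phosphorylate YAP and TAZ on serines and so keep them in the cytoplasm or mark them for degradation. Cell contact at confluence activates this pathway in most cultured cells. Loss of the serines leaves YAP or TAZ in the nucleus at high density, and matrix, growth factor and cytoskeletal genes are known outputs. The comparison asked which genes differ in level between cells with these hyperactive paralogs.

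The exchanged serines are shown here in the reference genes, because the position of these sites is what separates both constructs from the wild-type proteins. Each line gives 18 bases of coding sequence, 5′ to 3′ on the coding strand, that end with the serine codon in capitals. They were read from the GENCODE 44 gene models of GRCh38. The windows were found by searching both proteins for the LATS recognition pattern, with histidine at the first codon and arginine at the third. All 9 windows hold the pattern for that reason, and their serines are those exchanged in the constructs. The window of YAP1 serine 109 is split by an intron. All others lie in 1 coding exon. The constructs themselves were not sequenced here.
WWTR1 serine 66, chr3:149657109-149657126, minus strand: cactcgcgccagtccAGC
WWTR1 serine 89, chr3:149657040-149657057, minus strand: catgtccgctcgcacTCG
WWTR1 serine 117, chr3:149656956-149656973, minus strand: cacctccgccagcagTCC
WWTR1 serine 311, chr3:149526098-149526115, minus strand: cattcgagggagcagAGC
YAP1 serine 61, chr11:102111014-102111031, plus strand: cacgtccgcggggacTCG
YAP1 serine 109, chr11:102111158-102114149 with an intron between, plus strand: cactcccgacaggccAGT
YAP1 serine 127, chr11:102114186-102114203, plus strand: catgttcgagctcatTCC
YAP1 serine 164, chr11:102114297-102114314, plus strand: catcttcgacagtctTCT
YAP1 serine 397, chr11:102227479-102227496, plus strand: cactctcgagatgagAGT

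The genes of the constructs were examined first. Levels are given as CPM, which are counts set to a common library total after scaling by the trimmed mean of M-values (TMM), in the order of replicates 1, 2 and 3. CPM are not corrected for transcript length, so they compare libraries and not genes. YAP1 stood at 90.9, 101 and 109 CPM in TAZ4SA, at 248, 249.6 and 256 CPM in YAP5SA and at 143, 127 and 116 CPM in EV. WWTR1 stood at 134, 132 and 133 CPM in TAZ4SA, at 70.0, 66.7 and 67.9 CPM in YAP5SA and at 229, 204 and 184 CPM in EV. For both genes the TAZ4SA and YAP5SA libraries did not overlap. YAP1 was higher in YAP5SA (log2 fold change 1.33, SE 0.10, adjusted p = 9.07e-09) and WWTR1 was higher in TAZ4SA (log2 fold change -0.96, SE 0.083, adjusted p = 3.32e-08), with fold changes given as YAP5SA over TAZ4SA throughout. Against EV, YAP1 was raised in YAP5SA by 0.96 on the log2 scale (adjusted p = 3.43e-08), but WWTR1 in TAZ4SA was below EV, at -0.63 (adjusted p = 8.79e-07). WWTR1 was lower still in YAP5SA, at -1.59 against EV (adjusted p = 2.92e-13), so a level below EV was not particular to TAZ4SA. Counts per gene do not separate vector from endogenous transcripts, and the total WWTR1 level did not show the construct against EV. The study reports TAZ4SA protein in SW872 cells by Flag western blot, which these counts do not address. TAZ4SA therefore stands here for the libraries labelled TAZ4SA. None of the 4 TEAD genes, the DNA-binding partners, passed the test, with log2 fold changes of 0.18 for TEAD1, -0.20 for TEAD2, 0.25 for TEAD3 and -0.07 for TEAD4. TEAD1 stood at 188, 194 and 239.9 CPM in TAZ4SA and 218, 208 and 280.3 CPM in YAP5SA, with overlapping groups. Only TEAD3 of the 4 had all YAP5SA libraries above all TAZ4SA libraries.

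Totals ranged from 25810263 to 27653531 counts in TAZ4SA and from 23184246 to 25830489 in YAP5SA. The libraries numbered 3 stood apart from the others of their group. On the first principal component of the 500 most variable genes (76.6% of their variance) the groups separated, and on the second (18.3%) TAZ4SA replicate 3 (-6.79) and YAP5SA replicate 3 (-9.89) lay away from the other 4 libraries (3.12 to 4.79). Deviations from the group mean correlated across genes between same-numbered TAZ4SA and YAP5SA libraries, at 0.144, 0.299 and 0.611 for numbers 1, 2 and 3. What the shared number stands for was not stated. No pair of replicates was a duplicate, since counts differed beyond sampling noise in each (chi-square per gene of 3.14 to 21.0).

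Between TAZ4SA and YAP5SA, 1502 genes passed the test (7.81% of those tested), 766 higher in YAP5SA (3.99%) and 736 higher in TAZ4SA (3.83%). The test was edgeR's quasi-likelihood test with an adjusted p under 0.05 (Benjamini-Hochberg over all tested genes), and a gene that passed is called. Against EV, 9759 genes were called for TAZ4SA (50.8%), 5014 higher (26.1%) and 4745 lower (24.7%), and 8874 for YAP5SA (46.2%), 4573 higher (23.8%) and 4301 lower (22.4%), in comparisons that share the EV libraries. Scaling by total counts in place of TMM moved these splits to 3589 and 6888 for TAZ4SA and to 3341 and 6462 for YAP5SA, and the direct split hardly, to 778 and 741. Differences between the paralogs were mostly small, with a median absolute log2 fold change of 0.72 over called genes and 0.17 over all genes. Changes of at least 2-fold were found for 517 called genes (2.69%), 264 higher in YAP5SA (1.37%) and 253 higher in TAZ4SA (1.32%), changes of at least 4-fold for 117, and changes of at least 8-fold for 14. The TAZ4SA and YAP5SA libraries did not overlap at 4430 genes (23.0%), with YAP5SA higher at 2143 (11.1%) and TAZ4SA higher at 2287 (11.9%). The median log2 fold change over all genes was 0.006. With only the 6 libraries in the fit and the replicate number as a block (the paired fit), 3802 genes were called, 1939 higher in YAP5SA and 1863 higher in TAZ4SA. Without both libraries numbered 3, 922 genes were called, 496 and 426 respectively. Without TAZ4SA replicate 1, TAZ4SA replicate 2 or YAP5SA replicate 1 the count was 957, 997 or 958, and when the fold change itself was tested against 2-fold it was 94.

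**Figure D1:**
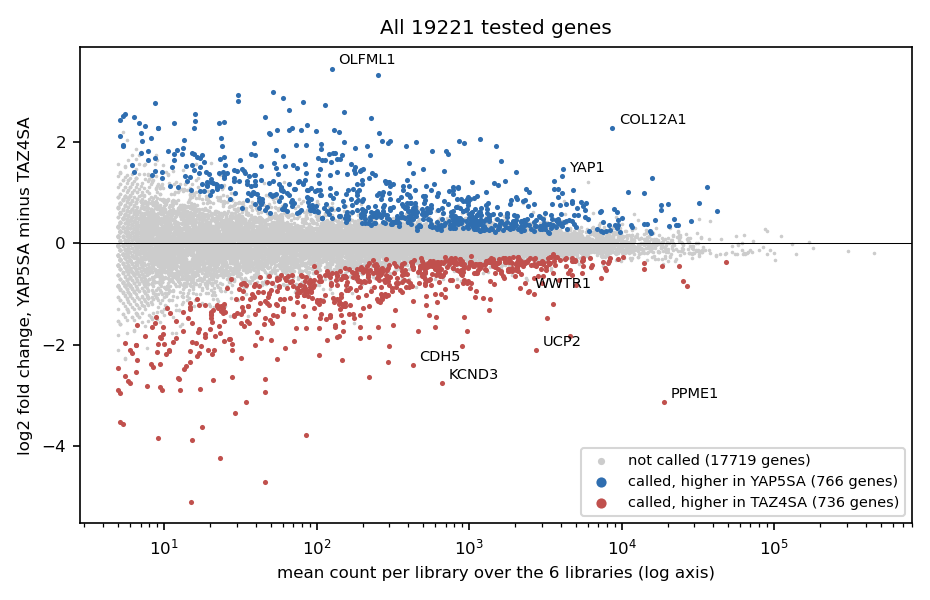
Each point is 1 tested gene, with its mean count per library over the 6 libraries on a log x axis and the log2 fold change (YAP5SA minus TAZ4SA) on the y axis. Blue points are the 766 genes called higher in YAP5SA and red points the 736 called higher in TAZ4SA. COL12A1 and PPME1 stand out among the genes with many counts, at 2.27 and -3.14.

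The called genes were mostly protein-coding, as were the genes tested, and they were spread over all levels of expression. Protein-coding genes made 75.2% of those tested, 88.1% of those higher in YAP5SA and 90.1% of those higher in TAZ4SA. Of 14462 protein-coding genes, 675 were higher in YAP5SA and 663 higher in TAZ4SA (9.25% called, against 7.81% of all genes). Of 2854 long noncoding RNA (lncRNA) genes, 72 were higher in YAP5SA and 39 higher in TAZ4SA (3.89% called). Processed pseudogenes ran the other way, with 2 higher in YAP5SA and 18 higher in TAZ4SA among 573 tested (3.49% called). Reads of pseudogenes cannot be told from those of their parent genes without the counting rule. The share called was 5.0% among genes with a mean of 5 to 50 counts, 9.97% from 50 to 500, 8.38% from 500 to 5000 and 8.33% above that. By chromosome, calls leaned to YAP5SA on chromosome 5 (66 against 27 of 884 genes, 10.5% called). They leaned to TAZ4SA on chromosome 11 (46 against 71 of 1051, 11.1%), chromosome 19 (29 against 73 of 1403, 7.27%) and chromosome 16 (15 against 39 of 937, 5.76%).

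Where a gene averaged 100 counts or more and the groups did not overlap, the 10 genes with the largest fold change towards YAP5SA encode secreted, matrix and surface proteins, among others. OLFML1, a secreted olfactomedin-like protein, stood at 0.638, 0.979 and 1.14 CPM in TAZ4SA and at 10.8, 10.7 and 8.97 CPM in YAP5SA, 11-fold higher (log2 fold change 3.46, SE 0.32, adjusted p = 1.19e-07). All 3 YAP5SA libraries were far above all 3 TAZ4SA libraries. COL12A1, the chain of type XII collagen that associates with fibrils, had the most reads of the 10, at 121, 137 and 132 CPM in TAZ4SA and 616, 615 and 651 CPM in YAP5SA (log2 fold change 2.27, SE 0.12, adjusted p = 5.18e-12). Its replicates lay close together in both groups. NPR3, the clearance receptor of natriuretic peptides, stood at 1.39, 2.38 and 1.83 CPM in TAZ4SA and 12.5, 10.2 and 11.4 CPM in YAP5SA (log2 fold change 2.61, SE 0.27, adjusted p = 6.04e-07). HCN4, the main pacemaker channel of the sinoatrial node, stood at 1.99, 2.51 and 2.02 CPM in TAZ4SA and 9.06, 10.8 and 10.2 CPM in YAP5SA (log2 fold change 2.20, SE 0.17, adjusted p = 1.03e-08). Neither gene had a library of one group within the range of the other, as the choice of these 10 required. The remaining genes were SLC27A2, a fatty acid transporter and acyl-CoA synthetase (2.73), MSLN, the mesothelial surface protein mesothelin (2.48), GPC4, a glypican (2.19), COL1A1, a chain of type I collagen (2.03), INMT, an N-methyltransferase (2.03), and the keratin KRT17 (3.33). KRT17 stood at 29.4, 29.8 and 4.45 CPM in YAP5SA and 2.55, 2.90 and 0.914 CPM in TAZ4SA, so replicate 3 was low in both groups. Its near-identical keratin copies and pseudogenes make its count uncertain. INMT overlaps a same-strand gene, so its count is uncertain too.

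The 10 with the largest fold change towards TAZ4SA encode a channel, a vascular receptor, an endothelial cadherin and a neurosecretory protein, among others. KCND3, the voltage-gated potassium channel Kv4.3, stood at 37.5, 47.1 and 56.3 CPM in TAZ4SA and at 6.29, 6.06 and 8.41 CPM in YAP5SA, 6.76-fold higher in TAZ4SA (log2 fold change -2.76, SE 0.22, adjusted p = 1.14e-08). It was nearly absent from EV, at 0.141, 0.0764 and 0.0485 CPM. FLT4, the receptor VEGFR-3 of lymphatic endothelium, stood at 19.6, 20.7 and 19.6 CPM in TAZ4SA and 3.38, 3.41 and 5.0 CPM in YAP5SA (log2 fold change -2.34, SE 0.24, adjusted p = 6.04e-07). CDH5, the cadherin of endothelial junctions, stood at 35.0, 34.5 and 19.8 CPM in TAZ4SA and 6.57, 7.29 and 3.06 CPM in YAP5SA (log2 fold change -2.41, SE 0.33, adjusted p = 2.58e-05). In EV it stood at 43.8, 54.8 and 31.2 CPM, and against EV it was lower in YAP5SA (-2.96, adjusted p = 1.07e-07), with a value of -0.54 in TAZ4SA that was not called (adjusted p = 0.124). VGF, a neuropeptide precursor, stood at 19.2, 19.8 and 19.9 CPM in TAZ4SA and 3.43, 4.87 and 6.11 CPM in YAP5SA (log2 fold change -2.02, SE 0.25, adjusted p = 7.34e-06). For all 4 of these genes the lowest TAZ4SA library was above the highest YAP5SA library, as the rule that chose the 10 required. The set also held PPME1 and UCP2, described next, SPOCD1, known for transposon silencing in the male germ line (-2.63), SLC6A17, a vesicular amino acid transporter of neurons (-2.31), VSTM1, an inhibitory leukocyte receptor (-2.21), and HBE1, embryonic globin (-2.04). HBE1 overlaps 3 genes on its strand and resembles the other globins, so its count is uncertain. Whether the counting used strand was not stated, so genes that share exon sequence with one on the opposite strand, such as KCND3, SPOCD1, SLC6A17, SLC27A2, YAP1 and WWTR1, are uncertain too. All calls in these sets of 10 were kept when any 1 of the 6 libraries was left out, and when both libraries numbered 3 were left out.

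**Figure D2:**
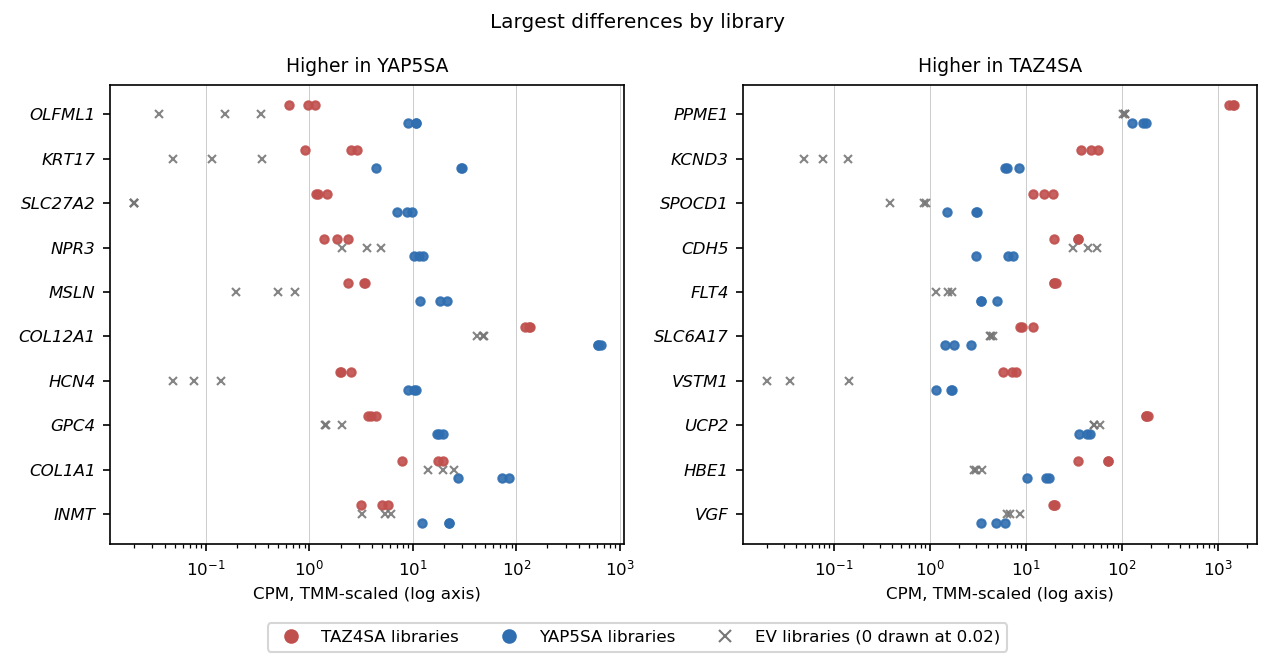
CPM per library on a log axis for the 10 genes with the largest fold change in each direction. Red dots are TAZ4SA, blue dots YAP5SA and grey crosses EV, with values of 0 drawn at 0.02. PPME1 stands at 1291 to 1455 CPM in TAZ4SA, and COL12A1 at 615 to 651 CPM in YAP5SA.

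PPME1, which demethylates and inactivates the phosphatase PP2A, gave the smallest p-value of all genes, and several of its neighbours on chromosome 11 were raised with it in TAZ4SA. PPME1 (ENSG00000214517, chr11:74171267-74254703, GRCh38) stood at 1416, 1455 and 1291 CPM in TAZ4SA, at 167, 179 and 128 CPM in YAP5SA and at 102, 107 and 107 CPM in EV (YAP5SA over TAZ4SA, log2 fold change -3.14, SE 0.11, adjusted p = 1.57e-15). All 3 TAZ4SA libraries were far above all others, and the means of the other 7 groups of the series lay between 71.8 and 158 CPM. Those 7 groups included the sub-confluent CAMTA1 and empty vector cells. UCP2 (chr11:73974672-73982843), a mitochondrial carrier, stood at 188, 179 and 179.5 CPM in TAZ4SA and 43.7, 47.0 and 35.9 CPM in YAP5SA (log2 fold change -2.11, SE 0.11, adjusted p = 2.34e-12). Its means in the other 7 groups were lower, at 19.3 to 66.5 CPM. C2CD3 (chr11:74012718-74171210), a centriole elongation factor, stood at 200.1, 214 and 180.1 CPM in TAZ4SA and 73.0, 71.1 and 69.4 CPM in YAP5SA (log2 fold change -1.48, SE 0.073, adjusted p = 2.23e-12). Its means elsewhere were 42.2 to 74.9 CPM. In all 3 genes every TAZ4SA library lay above every YAP5SA and EV library. The neighbours were singled out after their values were seen.

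UCP3 (-1.07, adjusted p = 0.00506) and P4HA3 (-0.91, adjusted p = 7.29e-04) were also higher in TAZ4SA than in YAP5SA, but P4HA3 in TAZ4SA (8.70 CPM) was below EV (10.2 ± 1.02 CPM, SD, n = 3). P4HA3 lies on the opposite strand and shares exon sequence with PPME1, so reads cannot be told apart if the counting ignored strand. A further call in the same direction, with a mean count of 23.2, was an unnamed transcript (ENSG00000280269, log2 fold change -4.25) that lies within the bounds of PPME1. The genes on either side, from PAAF1 and COA4 upstream to PGM2L1 and POLD3 downstream, were not called, with log2 fold changes of 0.02, -0.07, -0.29 and -0.03. Uncalled genes within 1000 kb ranged from -0.67 (ENSG00000260401) to 0.65 (ENSG00000255847). Among them were DNAJB13, between PAAF1 and UCP2, at -0.57 and KCNE3, between PGM2L1 and POLD3, at -0.65. The called genes thus formed 1 block between uncalled neighbours, and its cause was not tested.

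**Figure D3:**
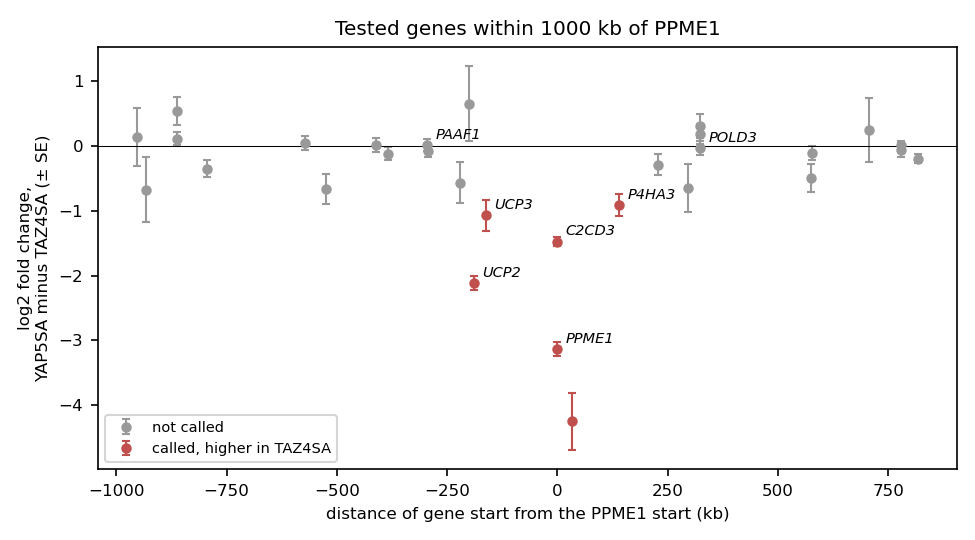
Log2 fold change (YAP5SA minus TAZ4SA, error bars are SE) of every tested gene whose start lies within 1000 kb of the PPME1 start, by distance in kb. Red points are called higher in TAZ4SA and grey points are not called. UCP2, UCP3, C2CD3, PPME1 and P4HA3 form 1 block of negative values between uncalled genes.

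PPME1 and C2CD3 start close together on opposite strands, without overlap, and are read away from each other. The 250 bases before the RefSeq start of PPME1 are shown because C2CD3 also starts within them (RefSeq, GRCh38.p14, chr11:74171039-74171288, plus strand). The GENCODE start of PPME1 given above lies within them too. None of the 4 motifs searched below was found in it.
PPME1 upstream region: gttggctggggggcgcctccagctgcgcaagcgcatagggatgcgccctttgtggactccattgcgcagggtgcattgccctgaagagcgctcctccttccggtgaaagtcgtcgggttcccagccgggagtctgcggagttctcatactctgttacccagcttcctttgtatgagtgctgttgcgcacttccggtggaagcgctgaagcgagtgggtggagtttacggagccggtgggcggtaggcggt

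Genes of the extracellular matrix were mostly higher in YAP5SA where they differed. Of 23 collagen chains tested, 10 were higher in YAP5SA and 1 in TAZ4SA, 47.8% called against 7.81% of all genes. The median log2 fold change was 0.21, against 0.006 over all genes. COL12A1, above, was the most changed. COL1A1 stood at 19.7, 17.5 and 7.81 CPM in TAZ4SA and 71.9, 85.0 and 27.2 CPM in YAP5SA (log2 fold change 2.03, SE 0.34, adjusted p = 3.27e-04), and COL1A2, the second chain of type I collagen, at 33.3, 32.7 and 16.8 CPM in TAZ4SA and 135, 119.9 and 62.2 CPM in YAP5SA (log2 fold change 1.94, SE 0.24, adjusted p = 7.45e-06). Replicate 3 was the lowest of its group for both chains and yet the groups did not overlap. Against EV, COL1A1 was raised in YAP5SA (1.65, adjusted p = 3.23e-04), while COL1A2 was lowered in TAZ4SA (-2.0, adjusted p = 3.08e-07) with a value of -0.07 in YAP5SA (adjusted p = 0.838). The other 7 chains higher in YAP5SA were COL3A1, COL4A5, COL5A1, COL5A2, COL5A3, COL8A2 and COL16A1, from 0.40 to 1.68. COL6A2, of type VI collagen, was the 1 chain higher in TAZ4SA (-0.39, adjusted p = 0.0207). Its call was lost without TAZ4SA replicate 1 or 2 or YAP5SA replicate 1 or 3.

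Of 31 matricellular and elastic fibre genes tested, 12 were higher in YAP5SA and 0 in TAZ4SA by edgeR (1 at an unadjusted p under 0.05, 0 by DESeq2), with a median of 0.41. The share called was 38.7%, against 7.81% of all genes. FBN2, a fibrillin of microfibrils, stood at 4.54, 5.11 and 5.83 CPM in TAZ4SA and 18.8, 18.7 and 25.1 CPM in YAP5SA (log2 fold change 2.02, SE 0.27, adjusted p = 1.53e-05). MFAP5, a microfibril-associated glycoprotein, stood at 1.71, 1.92 and 2.06 CPM in TAZ4SA and 7.37, 6.82 and 8.02 CPM in YAP5SA (log2 fold change 1.96, SE 0.26, adjusted p = 1.47e-05). Every YAP5SA library exceeded every TAZ4SA library for both genes. POSTN, the matricellular protein periostin, had a fold change as large (log2 fold change 2.09, SE 0.53, adjusted p = 0.0140) but at low level, 0.279, 0.511 and 0.381 CPM in TAZ4SA and 1.5, 1.42 and 2.02 CPM in YAP5SA, against 22.8, 20.3 and 15.3 CPM in EV, and its call was lost without TAZ4SA replicate 1 or YAP5SA replicate 3 and without both libraries numbered 3 (adjusted p = 0.155). The other 9 were EFEMP2, FBLN5, FBN1, LOXL1, LOXL2, LTBP1, SPARC, THBS1 and TNC, from 0.41 to 1.95. Without both libraries numbered 3, the collagen calls were 8 and 2 and the matricellular calls 10 and 0. Under the replicate block of the paired fit they were 12 and 5, and 16 and 3.

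The 250 bases before the COL12A1 start are shown because this gene differed most among the collagens. They hold 1 TEAD motif, in capitals, at -167 to -162 from the start (RefSeq, GRCh38.p14, chr6:75206054-75206303, minus strand, written 5′ to 3′).
COL12A1 upstream region: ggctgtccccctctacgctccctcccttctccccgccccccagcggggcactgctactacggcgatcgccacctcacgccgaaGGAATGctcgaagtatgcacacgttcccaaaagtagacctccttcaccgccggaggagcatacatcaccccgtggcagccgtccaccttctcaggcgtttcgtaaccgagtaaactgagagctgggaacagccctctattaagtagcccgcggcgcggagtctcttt

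Integrins and laminins, taken as 1 list, were mostly higher in YAP5SA where they differed. Of 28 tested, 6 were higher in YAP5SA and 2 in TAZ4SA, 28.6% called against 7.81% of all genes, with a median of 0.17. ITGA1, the collagen-binding integrin alpha 1, stood at 90.0, 94.6 and 93.1 CPM in TAZ4SA and 234, 219.6 and 202 CPM in YAP5SA (log2 fold change 1.24, SE 0.12, adjusted p = 1.84e-07), with EV at 234 ± 3.56 CPM (SD, n = 3). ITGB8, which activates latent TGF-beta, stood at 1.43, 1.11 and 1.07 CPM in TAZ4SA and 4.22, 3.83 and 3.97 CPM in YAP5SA (log2 fold change 1.73, SE 0.21, adjusted p = 4.50e-06). The groups were apart for both, although ITGA1 shares sequence with other genes on its strand. LAMB3, a chain of laminin-332, was higher in TAZ4SA (log2 fold change -1.31, SE 0.24, adjusted p = 6.90e-04), as was ITGA10 (log2 fold change -1.23, SE 0.23, adjusted p = 9.44e-04). By the paired fit 11 and 8 were called.

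Matrix proteases and their inhibitors were mostly higher in TAZ4SA where they differed. Of 21 tested, 2 were higher in YAP5SA and 6 in TAZ4SA, 38.1% called against 7.81% of all genes, with a median of -0.20. MMP9, gelatinase B, stood at 3.91, 3.62 and 2.32 CPM in TAZ4SA and 0.610, 1.09 and 0.913 CPM in YAP5SA (log2 fold change -1.90, SE 0.39, adjusted p = 0.00230). PLAUR, the urokinase receptor, stood at 80.9, 87.1 and 65.7 CPM in TAZ4SA and 47.4, 49.9 and 36.4 CPM in YAP5SA (log2 fold change -0.81, SE 0.15, adjusted p = 0.00128). ADAMTS4, an aggrecanase, stood at 17, 16.3 and 11.5 CPM in TAZ4SA and 6.71, 7.15 and 6.27 CPM in YAP5SA (log2 fold change -1.16, SE 0.15, adjusted p = 1.25e-05). For all 3 genes every TAZ4SA library was above the YAP5SA range. MMP14 (-0.53) and the protease inhibitor SERPINE2 (-0.48) were also among the 6. ADAMTS12 (0.67) and MMP24 (0.80) were the 2 higher in YAP5SA. These counts did not change without both libraries numbered 3, and were 4 and 10 in the paired fit.

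**Figure D4:**
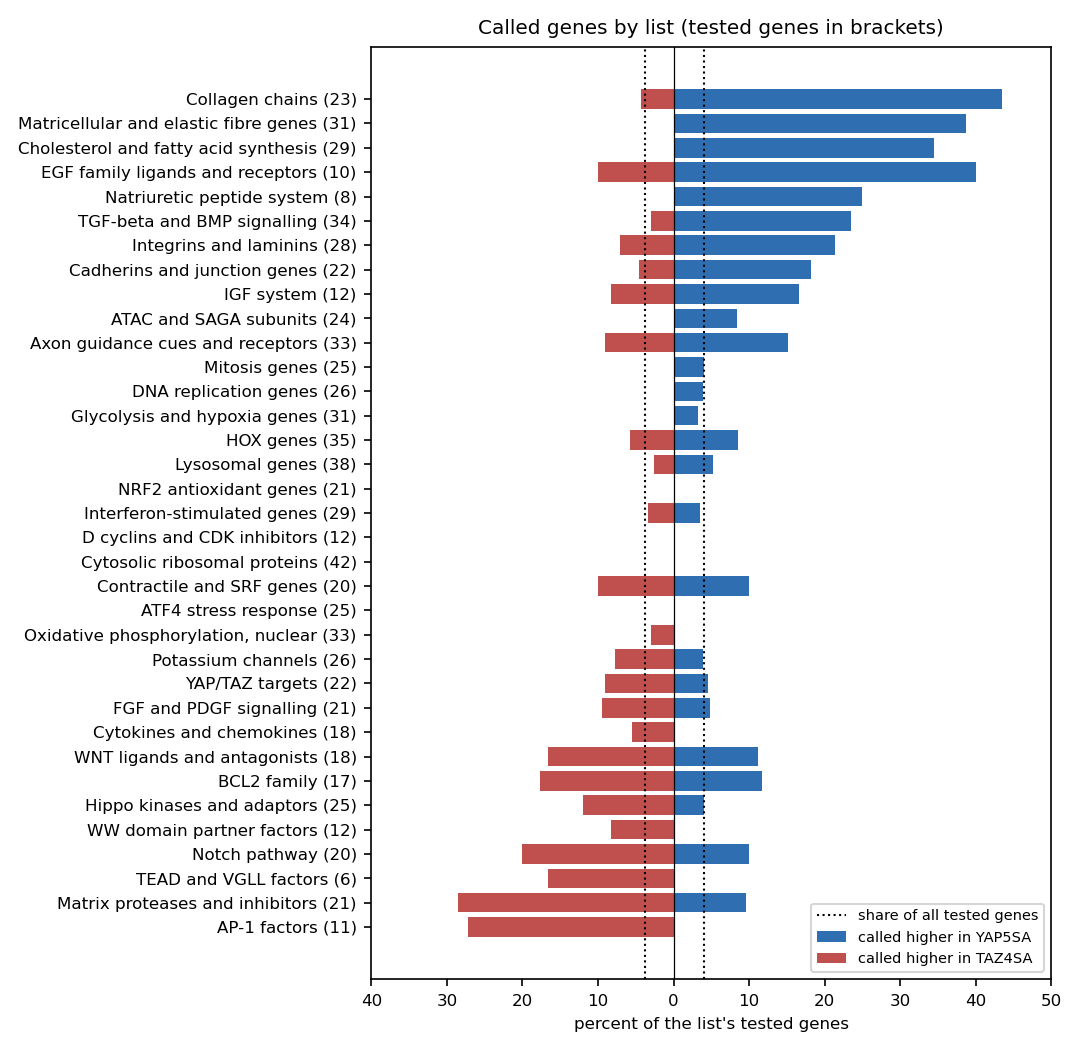
Share of each list's tested genes (number in brackets) that was called higher in YAP5SA (blue, to the right) or higher in TAZ4SA (red, to the left). Dotted lines mark the shares over all tested genes, 3.99% and 3.83%. Collagens, EGF family genes, matricellular genes and cholesterol synthesis reach furthest to the right, matrix proteases and AP-1 factors furthest to the left.

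Genes of cholesterol synthesis were higher in YAP5SA where they differed. Of 29 genes of cholesterol and fatty acid synthesis, 10 were called higher in YAP5SA and 0 in TAZ4SA by edgeR (1 at an unadjusted p under 0.05, 0 by DESeq2), 26 had a fitted value above 0, and the median was 0.42. The share called was 34.5%, against 7.81% of all genes. HMGCS1, an early synthase of the pathway, stood at 133, 151 and 121 CPM in TAZ4SA and 314, 274 and 249 CPM in YAP5SA (log2 fold change 1.05, SE 0.25, adjusted p = 0.00925), and MSMO1, a sterol demethylase, at 60.7, 72.5 and 74.5 CPM in TAZ4SA and 149, 112 and 109.7 CPM in YAP5SA (log2 fold change 0.83, SE 0.23, adjusted p = 0.0221). For both the groups were apart. IDI1 (0.70), FDPS (0.54), SQLE (0.59), SC5D (0.58) and TM7SF2 (0.62), enzymes of the same route, were also called. Fatty acid enzymes of the list were not called, with -0.13 for FASN, 0.21 for ACACA and 0.22 for SCD. The count was sensitive to single libraries. It was 3 without YAP5SA replicate 1, 4 without TAZ4SA replicate 1, 5 without TAZ4SA replicate 2 or 3, 6 without YAP5SA replicate 2 and 11 without YAP5SA replicate 3. Without both libraries numbered 3 it was 4, with HMGCS1 at an adjusted p of 0.0583 and MSMO1 at 0.0518, and in the paired fit it was 21, against 1 higher in TAZ4SA.

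Of 22 YAP/TAZ targets, 1 was higher in YAP5SA and 2 were higher in TAZ4SA, 13.6% against 7.81% of all genes, with a median of -0.07. CCDC80, a secreted matrix protein, stood at 153, 167 and 118 CPM in TAZ4SA and 274, 270.3 and 237 CPM in YAP5SA (log2 fold change 0.83, SE 0.12, adjusted p = 3.06e-05). IGFBP3, which binds insulin-like growth factors, was higher in TAZ4SA (log2 fold change -0.95, SE 0.28, adjusted p = 0.0365), as was LATS2, a kinase of the pathway and a feedback target (log2 fold change -0.41, SE 0.11, adjusted p = 0.0225). LATS2 stood at 37.7, 41.3 and 39.0 CPM in TAZ4SA and 26.8, 31.6 and 30.4 CPM in YAP5SA. Both of these calls were lost without both libraries numbered 3. IGFBP3 was also lost without TAZ4SA replicate 1 or 2 or YAP5SA replicate 2 or 3, and LATS2 without TAZ4SA replicate 2 or YAP5SA replicate 1. The other 19 targets lay between -0.42 (ANKRD1) and 0.29 (RBMS3). CCN2, a classic target named here after its values were seen, stood at 626, 599 and 545 CPM in TAZ4SA, 519, 469 and 479 CPM in YAP5SA and 27.2, 20.7 and 16.5 CPM in EV (log2 fold change -0.27 between paralogs, adjusted p = 0.450). A p above the threshold does not show equal levels. In the paired fit, 3 targets were higher in YAP5SA and 6 in TAZ4SA.

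The upstream region of CCN2 is shown beside that of COL12A1 because both hold TEAD motifs while COL12A1 differed between the paralogs. CCN2 has 3, in capitals, at -169 to -164, -104 to -99 and -95 to -90 (RefSeq, GRCh38.p14, chr6:131951373-131951622, minus strand, written 5′ to 3′).
CCN2 upstream region: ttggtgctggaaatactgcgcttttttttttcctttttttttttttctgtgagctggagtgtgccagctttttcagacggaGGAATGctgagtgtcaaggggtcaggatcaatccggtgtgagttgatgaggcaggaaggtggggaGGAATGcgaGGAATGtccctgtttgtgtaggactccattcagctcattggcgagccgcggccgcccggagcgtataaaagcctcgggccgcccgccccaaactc

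Of 25 Hippo kinases and adaptors, 1 was higher in YAP5SA and 3 were higher in TAZ4SA, 16.0% called against 7.81% of all genes. AMOT, the scaffold angiomotin, stood at 3.51, 3.58 and 4.38 CPM in TAZ4SA and 10.4, 9.84 and 9.45 CPM in YAP5SA (log2 fold change 1.37, SE 0.17, adjusted p = 4.71e-06). NF2, the upstream activator merlin, stood at 227, 209 and 167 CPM in TAZ4SA and 128, 138 and 101 CPM in YAP5SA (log2 fold change -0.71, SE 0.11, adjusted p = 1.09e-04), against 66.1, 68.2 and 69.9 CPM in EV. Neither gene had overlapping groups. DCHS1, the protocadherin Dachsous, was higher in TAZ4SA (-0.53, adjusted p = 0.00942), although without TAZ4SA replicate 1 or YAP5SA replicate 3 it was not called. LATS2 was the third. Under the replicate block of the paired fit 7 were higher in YAP5SA and 3 in TAZ4SA. Of 6 TEAD and VGLL genes tested, 1 was called (16.7%), VGLL4, a TEAD repressor, higher in TAZ4SA (-0.42, adjusted p = 0.0354). Its call was lost in each of the 6 fits without 1 library. RUNX1, which WW domains can bind, was the 1 of 12 WW domain partner factors that was called (-0.39, adjusted p = 0.0103), and not without TAZ4SA replicate 2. At 8.33% of that list, calls were near the share of all genes. In the paired fit 2 TEAD and VGLL genes were higher in YAP5SA and 1 in TAZ4SA, and 2 WW domain partners were higher in TAZ4SA.

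AP-1 factors, the frequent neighbours of TEAD on enhancers, were higher in TAZ4SA where they differed. Of 11 tested, 0 were higher in YAP5SA by edgeR (0 at an unadjusted p under 0.05 and 0 by DESeq2), 3 were higher in TAZ4SA, 10 had a fitted value below 0, and the median was -0.37. Calls made 27.3% of the list, against 7.81% of all genes. JUNB stood at 16.2, 15.8 and 16.5 CPM in TAZ4SA and 6.15, 7.81 and 9.92 CPM in YAP5SA (log2 fold change -1.02, SE 0.21, adjusted p = 0.00249), with EV at 9.67, 9.20 and 11.5 CPM. BATF3 (-0.59) and MAFK (-0.34) were the others. Only JUNB was called without both libraries numbered 3, without TAZ4SA replicate 1 and without YAP5SA replicate 1. By the paired fit 7 of the 11 were called, all higher in TAZ4SA.

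Notch genes went in both directions. Of 20 tested, 2 were higher in YAP5SA and 4 in TAZ4SA, 30.0% called against 7.81% of all genes. JAG1, a Notch ligand, stood at 33.7, 32.9 and 29.6 CPM in TAZ4SA and 61.5, 61.4 and 56.0 CPM in YAP5SA (log2 fold change 0.90, SE 0.15, adjusted p = 4.02e-04), and the receptor NOTCH2 was also higher in YAP5SA (0.36, adjusted p = 0.00649). The ligand DLL4 stood at 0.598, 0.809 and 0.838 CPM in TAZ4SA and 0.0939, 0.189 and 0.278 CPM in YAP5SA (log2 fold change -1.94, SE 0.46, adjusted p = 0.00810) and the receptor NOTCH4 at 2.03, 2.34 and 1.52 CPM in TAZ4SA and 0.563, 1.04 and 0.714 CPM in YAP5SA (log2 fold change -1.34, SE 0.27, adjusted p = 0.00199), both known from endothelium and both with few counts. Every TAZ4SA library was above every YAP5SA library. The receptor NOTCH1 (-0.78) and NRARP, a feedback target (-0.93), were the others higher in TAZ4SA. The calls of DLL4 and NRARP were lost without YAP5SA replicate 1, leaving 2, and that of NRARP also without TAZ4SA replicate 3. Without both libraries numbered 3, 1 gene was higher in YAP5SA and 3 were higher in TAZ4SA, with NOTCH2 at an adjusted p of 0.0613. In the paired fit the counts were 4 and 6.

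Ligands and modulators of the TGF-beta and BMP pathways were mostly higher in YAP5SA where they differed. Of 34 tested, 8 were higher in YAP5SA and 1 in TAZ4SA, 26.5% called against 7.81% of all genes, with a median of 0.18. BMP2 stood at 1.16, 1.11 and 0.724 CPM in TAZ4SA and 4.93, 4.73 and 4.52 CPM in YAP5SA (log2 fold change 2.25, SE 0.29, adjusted p = 1.29e-05), and GDF6, a related ligand, at 0.678, 0.937 and 0.724 CPM in TAZ4SA and 3.24, 3.64 and 3.61 CPM in YAP5SA (log2 fold change 2.17, SE 0.26, adjusted p = 4.69e-06). Both ligands were apart between groups and low in EV. FSTL3, which binds activin, stood at 60.9, 66.5 and 53.4 CPM in TAZ4SA and 115, 139 and 87.0 CPM in YAP5SA (log2 fold change 0.92, SE 0.14, adjusted p = 1.25e-04). The other 5 were BMP4, BMPR1A, ID2, SMAD6 and TGFBR3, from 0.48 to 0.87. TGFB1, the ligand TGF-beta 1, was the 1 higher in TAZ4SA, at 114, 111 and 107 CPM against 69.4, 77.1 and 71.8 CPM in YAP5SA (log2 fold change -0.60, SE 0.12, adjusted p = 0.00192). Without both libraries numbered 3 the counts were 6 and 1, and in the paired fit 12 and 4.

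Growth factor and guidance genes moved in both directions. Of 10 EGF family genes, the receptors ERBB2 (0.53) and ERBB3 (0.59) and the ligands HBEGF (0.45) and NRG1 (0.39) were higher in YAP5SA. The receptor EGFR was higher in TAZ4SA (-0.29), at 214, 219 and 216 CPM against 176, 179 and 176 CPM. The 4 calls higher in YAP5SA became 1 without TAZ4SA replicate 3, YAP5SA replicate 1 or YAP5SA replicate 2, and 2 without TAZ4SA replicate 1 or without both libraries numbered 3, where EGFR was also lost (adjusted p = 0.0584). FGFR3, an FGF receptor, was higher in YAP5SA (log2 fold change 1.29, SE 0.21, adjusted p = 1.61e-04) and the ligand PDGFB higher in TAZ4SA (log2 fold change -0.91, SE 0.17, adjusted p = 9.51e-04). WNT5A, a non-canonical WNT ligand, was higher in YAP5SA, at 21.2, 24.2 and 20.7 CPM in TAZ4SA and 52.0, 48.2 and 37.4 CPM in YAP5SA (log2 fold change 1.06, SE 0.14, adjusted p = 1.90e-05). IL11, a cytokine of fibroblasts, was the 1 of 18 cytokines and chemokines called, 5.56% against 7.81% of all genes (median of the list -0.45). It stood at 17.5, 17.1 and 13.4 CPM in TAZ4SA and 6.90, 8.99 and 7.30 CPM in YAP5SA (log2 fold change -1.05, SE 0.19, adjusted p = 5.47e-04). IGFBP7 was higher in YAP5SA (log2 fold change 1.08, SE 0.12, adjusted p = 2.06e-06). Among 33 guidance cues and receptors, 5 were higher in YAP5SA, led by SLIT3 (1.40), SEMA3B (1.24) and EPHA4 (1.06), and 3 in TAZ4SA, led by the receptor EPHB1 (log2 fold change -1.84, SE 0.25, adjusted p = 1.82e-05). Among 22 cadherin and junction genes, 4 were higher in YAP5SA, including CDH2, N-cadherin, at 9.49, 10.6 and 10.3 CPM in TAZ4SA and 26.1, 26.3 and 27.9 CPM in YAP5SA (log2 fold change 1.40, SE 0.19, adjusted p = 2.68e-05), and CDH3, P-cadherin (0.73), and CDH5 was higher in TAZ4SA. The called shares were 24.2% of guidance and 22.7% of cadherin and junction genes, against 7.81% of all genes. Under the replicate block of the paired fit, 1 cytokine was higher in YAP5SA and 5 in TAZ4SA, 7 and 6 guidance genes were called, and 11 and 2 cadherin and junction genes.

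NPPB, the natriuretic peptide BNP, was nearly absent from EV (0.141, 0.153 and 0 CPM) and stood at 173, 194 and 149 CPM in TAZ4SA and 344, 391 and 171 CPM in YAP5SA (log2 fold change 0.82, SE 0.21, adjusted p = 0.0156). YAP5SA replicate 3 lay within the TAZ4SA range. The call was lost without TAZ4SA replicate 1 or 3 or YAP5SA replicate 1 or 2, and with DESeq2. Its clearance receptor NPR3, above, and NPPB were the 2 of 8 genes of the natriuretic peptide system that were called (25.0%, against 7.81% of all genes). At an unadjusted p under 0.05, 3 further genes were higher in TAZ4SA, and in the paired fit 2 were higher in YAP5SA and 3 in TAZ4SA.

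The remaining lists are given mainly by their counts, against 7.81% called over all genes. No gene was called among 12 D cyclins and CDK inhibitors, 25 ATF4 stress response genes, 21 NRF2 antioxidant genes and 42 cytosolic ribosomal proteins by edgeR. At an unadjusted p under 0.05 these lists held 4, 1, 3 and 4 genes in that order, and DESeq2 called 0 in each. All 42 ribosomal protein genes had a fitted value below 0 (median -0.17). By the paired fit 22 of the 42 were called, all higher in TAZ4SA. The same fit called 5, 8 and 9 genes in the other 3 lists in the order given. In the 26 DNA replication genes CDC6 (0.44) and in the 25 mitosis genes MYBL2 (0.56) were called higher in YAP5SA. CDC6 was lost in each of the 6 fits without 1 library, MYBL2 without TAZ4SA replicate 3 or YAP5SA replicate 1 or 2, and both without both libraries numbered 3. In the oxidative and glycolytic lists, 1 of 31 glycolysis and hypoxia genes, P4HA1 (0.38), was higher in YAP5SA, and 1 of 33 oxidative phosphorylation genes was higher in TAZ4SA. In the paired fit the calls for YAP5SA and TAZ4SA were 9 and 1 DNA replication genes, 7 and 1 mitosis genes, 3 and 4 glycolysis genes, and 1 and 2 oxidative phosphorylation genes. In further lists the counts for YAP5SA and TAZ4SA were 2 and 1 of 38 lysosomal genes, 2 and 0 of 24 ATAC and SAGA subunits, 3 and 2 of 35 HOX genes, 2 and 3 of 17 BCL2 family genes, and 1 and 1 of 29 interferon-stimulated genes. They were 2 and 2 of 20 contractile and SRF genes, 1 and 2 of 26 potassium channels, 2 and 3 of 18 WNT genes, 1 and 2 of 21 FGF and PDGF genes, and 2 and 1 of 12 genes of the IGF system. Under the replicate block of the paired fit they were, in the same order, 4 and 6, 2 and 1, 5 and 4, 3 and 5, 7 and 5, 6 and 3, 3 and 7, 5 and 6, 5 and 5, and 6 and 1. Counts this small rested on single libraries. Leaving out any 1 of the 6 gave 0 or 1 WNT genes higher in TAZ4SA, 0 or 1 BCL2 family genes higher in YAP5SA and 0 to 2 HOX genes higher in YAP5SA.

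Markers of cell types were examined in the same libraries. The mesenchymal markers of the line were present in both groups, with summed levels of 3309.6 to 4486 CPM in TAZ4SA and 3333 to 5134 CPM in YAP5SA, below the 5891 to 6748 CPM of EV. Of 10 tested, COL1A1, COL1A2 (1.94) and S100A4 (0.69) were called, all higher in YAP5SA, and the median was 0.26. Of 10 adipocyte markers 6 passed the count filter, FABP4, ADIPOQ, LEP and CIDEC did not, and CEBPA (1.03) and LPL (1.20) were higher in YAP5SA. Endothelial markers that differed were higher in TAZ4SA. Of 9 tested, 3 were called (CDH5, TIE1 and KDR), 7 had a fitted value below 0, the median was -0.81, and the summed level was 299 to 392 CPM in TAZ4SA, 97.6 to 128 CPM in YAP5SA and 215 to 264 CPM in EV. TIE1, an endothelial receptor kinase, held most of the summed CPM in TAZ4SA and YAP5SA, at 324, 314 and 253 CPM in TAZ4SA, 87.9, 91.0 and 70.1 CPM in YAP5SA and 89.2, 101 and 92.9 CPM in EV (YAP5SA over TAZ4SA, log2 fold change -1.84, SE 0.13, adjusted p = 1.68e-09). KDR, the receptor VEGFR-2, stood at 7.49, 5.79 and 5.6 CPM in TAZ4SA, 2.96, 2.41 and 3.18 CPM in YAP5SA and 39.7, 55.0 and 39.8 CPM in EV (YAP5SA over TAZ4SA, log2 fold change -1.14, SE 0.28, adjusted p = 0.0103), and was lower than EV in both. PECAM1 (0.03) and VWF (-0.01) were not called, and EMCN did not pass the count filter. The share called was 30.0% of mesenchymal, 33.3% of adipocyte and 33.3% of endothelial markers, against 7.81% of all genes. In the paired fit the calls for YAP5SA and TAZ4SA were 5 and 2 mesenchymal and 1 and 5 endothelial markers.

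Epithelial markers gave 2 genes higher in YAP5SA and 1 higher in TAZ4SA of 8 tested (4 and 1 in the paired fit). The share called was 37.5%, against 7.81% of all genes. KRT8, keratin 8, stood at 991, 1065 and 905 CPM in TAZ4SA, 2131, 2434 and 1857 CPM in YAP5SA and 52.3, 48.8 and 41.6 CPM in EV (YAP5SA over TAZ4SA 1.12, SE 0.17, adjusted p = 9.29e-05), ELF3 was higher in YAP5SA (1.77), CLDN4 was higher in TAZ4SA (-0.62), and EPCAM stood at 0.518, 0.681 and 0.533 CPM in TAZ4SA, 0.704, 0.521 and 0.556 CPM in YAP5SA and 1.90, 1.11 and 0.630 CPM in EV. KRT19 and GRHL2 did not pass the count filter, and near-identical pseudogenes make the KRT8 count uncertain. The summed level was 1873 to 2148 CPM in TAZ4SA, 2984 to 4014 CPM in YAP5SA and 206 to 226 CPM in EV. The part of other cell types in these results was not tested. Leukocyte markers summed to at most 4.42 CPM in any of the 6 libraries, with PTPRC, LYZ, CD68, ITGAM and TYROBP under the count filter, and 1 of 5 was called, CD3E, higher in TAZ4SA. No skeletal muscle marker was called by edgeR (0 of 5, with 1 at an unadjusted p under 0.05 and 0 by DESeq2), and of 8 melanocyte and neural crest markers 1 was called in each direction, ERBB3 and DCT. In bulk RNA, fewer cells of a type and less RNA per cell cannot be told apart.

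Some genes were raised against EV by one paralog and lowered by the other. These genes rest on both comparisons with the same EV libraries. Among those higher in YAP5SA, FRAS1, a basement membrane protein, stood at 6.54, 7.58 and 6.82 CPM in TAZ4SA, 29.2, 24.5 and 25.4 CPM in YAP5SA and 16.9, 19.2 and 16.6 CPM in EV, which gave -1.33 for TAZ4SA against EV and 0.59 for YAP5SA against EV. TMEM255A, a transmembrane protein, stood at 1.99, 2.55 and 2.55 CPM in TAZ4SA, 9.39, 8.0 and 6.87 CPM in YAP5SA and 4.36, 4.28 and 4.36 CPM in EV, with -0.87 and 0.90. In both genes the EV libraries lay between those of the paralogs. The same held in the fit for CXADR, the adenovirus receptor of cell junctions (-0.95 and 0.66), and NPR3 (-0.94 and 1.66).

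In the opposite direction, SLC6A17 stood at 12.0, 9.20 and 8.72 CPM in TAZ4SA, 1.45, 1.80 and 2.70 CPM in YAP5SA and 4.36, 4.20 and 4.56 CPM in EV (1.19 and -1.12 against EV). GMFG, an actin regulator of blood cells, stood at 13.9, 13.0 and 9.49 CPM in TAZ4SA, 3.89, 4.4 and 3.29 CPM in YAP5SA and 6.96, 9.97 and 7.17 CPM in EV (0.59 and -1.06). The TAZ4SA and EV libraries of GMFG overlapped, although its fit was called. UCP2 (1.77 and -0.34), the integrin ITGAX (1.08 and -0.41) and the transcription factor SP6 (0.61 and -0.79) went the same way. All of these genes were called in both comparisons with EV and in the direct test, as the rule that chose them required.

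**Figure D5:**
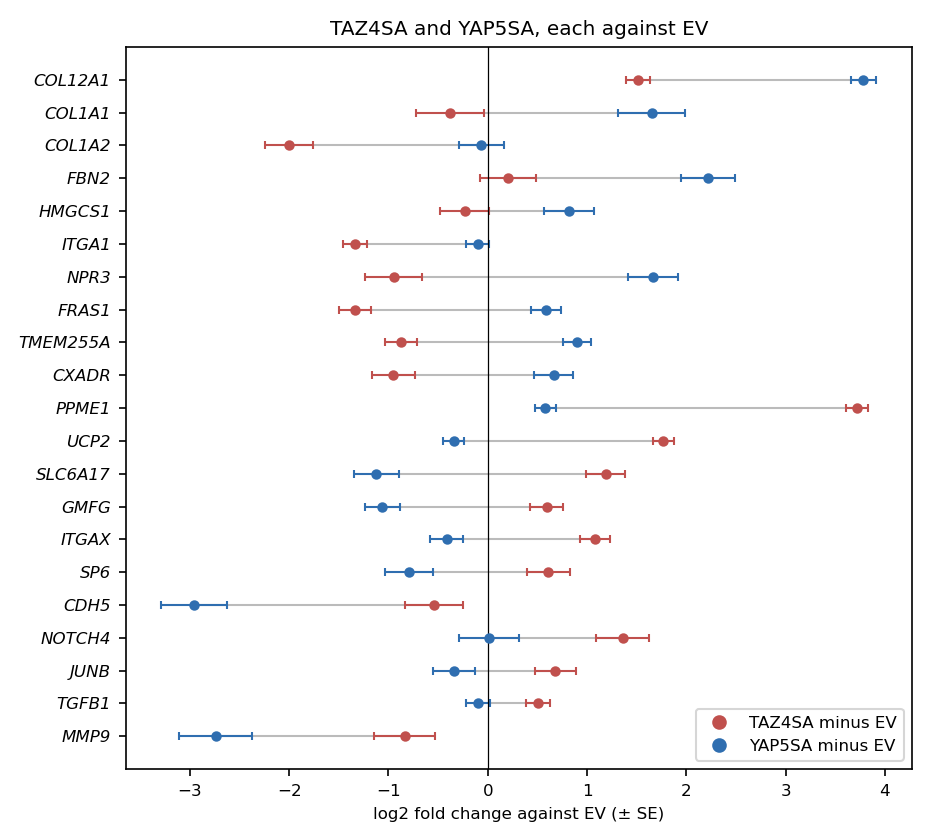
Log2 fold change of TAZ4SA (red) and of YAP5SA (blue) against EV, with bars for SE, for genes named in the text. Both comparisons use the same EV libraries. NPR3, FRAS1, TMEM255A and CXADR have TAZ4SA left and YAP5SA right of 0, and UCP2, SLC6A17, GMFG, ITGAX and SP6 the reverse.

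Among lncRNA genes, H19, the imprinted transcript beside IGF2, stood at 22.2, 25.6 and 12.9 CPM in TAZ4SA, 97.0, 115 and 42.3 CPM in YAP5SA and 315, 202 and 285 CPM in EV (YAP5SA over TAZ4SA, log2 fold change 2.07, SE 0.39, adjusted p = 0.00111). YAP5SA was above TAZ4SA in all libraries, as the rule that chose these genes required, and both were below EV. H19 overlaps other genes on both strands, so its count is uncertain. LINC02582 (1.88) and IGFL2-AS1 (1.80) were the next of those higher in YAP5SA. The largest changes towards TAZ4SA were smaller, with LINC02970 at -0.91, MIR4527HG at -0.60 and LINC01029 at -0.49, and the call of LINC01029 was lost in each of the 6 fits without 1 library. That of LINC02970 was lost without TAZ4SA replicate 3 or YAP5SA replicate 1, and that of MIR4527HG without TAZ4SA replicate 1 or YAP5SA replicate 3. The adjusted p without both libraries numbered 3 was 0.0859 for LINC02970, 0.0589 for MIR4527HG and 0.151 for LINC01029.

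Promoters of the called genes were searched for short motifs as a description, without a test. RefSeq upstream regions of 250 bases were found for 12706 of the tested genes, 553 of those higher in YAP5SA and 508 of those higher in TAZ4SA. The TEAD motif GGAATG, on either strand, was found in 14.6% of those higher in YAP5SA (81 genes), 8.27% of those higher in TAZ4SA (42 genes), 9.74% of those tested and 11.9% of all 27305 regions. The AP-1 motif TGANTCA was found in 4.34% (24), 6.89% (35), 4.27% and 6.6%. The RUNX motif TGTGGT was found in 8.86% (49), 9.06% (46), 8.02% and 10.9%. The SREBP motif TCACNCCAC was found in 0.723% (4), 0.591% (3), 0.819% and 0.875%. Of the lists, the TEAD motif was in 6 of 16 YAP/TAZ targets (37.5%), 6 of 23 matricellular genes (26.1%), 3 of 22 cholesterol and fatty acid genes (13.6%) and 1 of 20 collagen chains, COL12A1. The SREBP and RUNX motifs can share the letters CCAC on opposite strands. The windows hold few of the distal sites at which these factors are known to bind.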

How the data were processed

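The authors sequenced TruSeq stranded mRNA libraries and deposited unnormalized whole-number counts per gene, with no replicates pooled. Reads were aligned to hg38 with Hisat2 within bcbio-nextgen, per the study's methods. How these counts were made (tool, strand, reads with more than 1 alignment) was not given in the sources used here. The authors' own tests used salmon estimates.

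All 24 libraries (8 groups of 3, from the labels) were fitted in edgeR 4.0.16 (R 4.3.3) with TMM scaling, 1 mean per group, the quasi-likelihood F test and Benjamini-Hochberg adjustment over the 19221 genes that averaged 5 counts or more in the 6 libraries compared. An exact permutation test of 3 against 3 libraries cannot give a p below 0.1. Symbols, biotypes and overlaps came from GENCODE 44, which held 18858 of these genes.

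The members and gene lists were chosen with earlier results of these data known. Named genes were YAP1, WWTR1 and TEAD1 to TEAD4, up to 10 in each direction by fold change (called, protein-coding, mean of at least 100 counts, groups not overlapping), up to 3 called per list and direction, up to 5 in each direction called oppositely against EV, and up to 3 lncRNA genes in each direction. Marker genes and any further genes were named after their values were seen or complete a count. A few genes that meet these rules are counted but not reported by name here.

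Same-numbered TAZ4SA and YAP5SA libraries deviated together (correlations 0.144, 0.299 and 0.611, all over 0.1), but only those numbered 3 correlated best with their own number. The main test used no pairing. The replicate number was a block only in alternative fits, among them the paired fit, and this use comes from the data alone. Alternatives covered the low-count filter, scaling, DESeq2 1.42.0, a 2-fold test threshold, the libraries fitted, the replicate block, thinning and leaving out libraries. Totals of 23184246 to 27653531 counts set the precision of low genes.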

Additional observations from a re-analysis of the deposited data

How the results depend on the processing

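The direct comparison called 1502 genes, 766 higher in YAP5SA and 736 higher in TAZ4SA. When the fold change was tested against 2-fold the counts were 94, 50 and 44, and 1504 for TAZ4SA against EV and 1434 for YAP5SA against EV, because that test asks for larger changes. Without 1 library in turn the direct count ranged from 957 to 1363, with 491 to 650 higher in YAP5SA and 448 to 723 higher in TAZ4SA. Without both libraries numbered 3, an alternative chosen after seeing the data, it was 922 (496 and 426), and 869 of these were among the 1502. With only the 6 libraries and the replicate number as a block, also chosen after seeing the data, it was 3802 (1939 and 1863), which held 1500 of the 1502. The block in the fit of all 24 libraries gave 1616 genes (813 and 803), 9837 for TAZ4SA against EV and 8945 for YAP5SA against EV, and it lost 3 of the 124 named calls, IFIT5, IGFBP4 and KCNK2. Other filters, scalings, DESeq2, thinning and the fit of the 6 libraries without a block gave 1201 to 1637 genes. With scaling by total counts the median of all genes was -0.184 for TAZ4SA against EV (3589 genes higher and 6888 lower) and -0.182 for YAP5SA against EV (3341 and 6462), and with TMM it was -0.012 (5014 and 4745) and -0.019 (4573 and 4301), so values against EV are relative to TMM. No named gene that was called changed direction in any alternative run. Of 124 named calls, 76 were kept in each of the 6 fits without 1 library, 84 were kept without both libraries numbered 3, and 124 were kept with 6 libraries and the replicate block. In the fit of all 24 libraries the block moved no count of all called genes by over 1.5 times. Of the direct pairs, only those numbered 3 correlated best with their own number. Against EV the same-numbered correlations ran from -0.282 to 0.18. What the shared number stands for was not stated. Groups of 3 libraries limit the precision.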
